A study of Mus musculus with 25 samples.

Results

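The effect of the splicing modulator H3B-8800 that was shared by 3 mouse mammary tumor models was measured in 19 of the 25 bulk RNA libraries of the study. It was defined as the mean of the within-model differences between H3B-8800 and vehicle tumors in PyMT-M, AT3 and 2208L, with each model given the same weight. The fourth model, T11, was left out of this effect by definition. The libraries came from 4 vehicle and 4 H3B-8800 tumors of PyMT-M, 3 vehicle and 2 H3B-8800 tumors of AT3, and 3 vehicle and 3 H3B-8800 tumors of 2208L. Female mice received orthotopic grafts of these triple-negative breast cancer models at 4 to 5 weeks of age. PyMT-M and AT3 grew in C57BL/6 mice and 2208L in Balb/c mice, so strain and model cannot be told apart where 2208L is set against the other models. Mice were randomized to daily H3B-8800 or vehicle, and whole tumors were preserved before RNA extraction. PyMT-M and 2208L are labelled as responders and AT3 as a nonresponder, and the labels name no driver allele, dose or length of treatment. Each model is 1 transplantable tumor line, so tumors within a model are separate animals and not separate cancers.

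The target of H3B-8800 is SF3B, a complex within the U2 small nuclear ribonucleoprotein that holds the branch point adenosine of an intron while the spliceosome assembles. Drugs of this class slow the recognition of branch points, and the affected introns are then either kept in the RNA or spliced through other sites. Many splicing factors control their own messages through exons that carry an early stop codon, and RNAs that include such exons are removed by nonsense-mediated decay.

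The 19 libraries held 9820825 to 17767484 spliced reads at annotated introns, and 858362 to 5684308 reads inside introns. Skeletal muscle markers summed to 5271 CPM (counts scaled to the library's spliced reads) in vehicle tumor 1 of 2208L, and to 532 and 339.9 CPM in H3B-8800 tumors 1 and 2 of PyMT-M, against 9.47 to 82.4 CPM in the other 16 libraries. T cell markers summed to 53.3 CPM in vehicle tumor 2 of AT3, against 5.17 to 12.9 CPM in the other 4 AT3 tumors. Counts of rises and falls that lead a paragraph were repeated without these 4 libraries. Luminal epithelial markers summed to 6745 to 9488 CPM in PyMT-M and 5241 to 7545 CPM in 2208L, with either treatment, but to 182 to 537 CPM in AT3. Epcam, an epithelial adhesion molecule, was between 0 and 3.11 CPM in all 5 AT3 tumors, which the labels call breast tumors, while the keratin gene Krt8 was at 14.2 to 72.2 CPM there. Vim, a mesenchymal filament gene, was at 3903 to 7295 CPM there. In bulk tumors, fewer cells of a type and less RNA per cell cannot be told apart.

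Intronic reads took a larger share of reads in H3B-8800 tumors than in vehicle tumors. The share of reads overlapping annotated introns that lay inside the intron was 14.6%, 10.5%, 12.1% and 20% in PyMT-M vehicle tumors and 27.8%, 25.3%, 17.8% and 24.0% with the drug. In AT3 it was 9.63%, 15.9% and 10.1% and then 14.2% and 20.4%. In 2208L it was 7.90%, 10.1% and 10.4% and then 14.9%, 13.8% and 13.3%. The groups did not overlap in 2208L. In PyMT-M vehicle tumor 4 lay above drug tumor 3, and in AT3 vehicle tumor 2 lay above drug tumor 1. The group means went from 14.3% ± 4.17 to 23.7% ± 4.23 (SD, n = 4 and 4), from 11.9% ± 3.52 to 17.3% ± 4.37 (n = 3 and 2) and from 9.47% ± 1.37 to 14.0% ± 0.826 (n = 3 and 3). The equal-weight mean of the 3 differences was 6.46 percentage points (p = 0.001, 2-sided exact permutation test over 14000 relabellings within models). No single model reached the 0.05 threshold in a 2-sided exact permutation test, and the smallest p that AT3 or 2208L alone could give was 0.1. Counting only introns without an annotated exon gave a mean difference of 6.62 percentage points, and the tested introns alone gave 7.40.

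**Figure D1:**
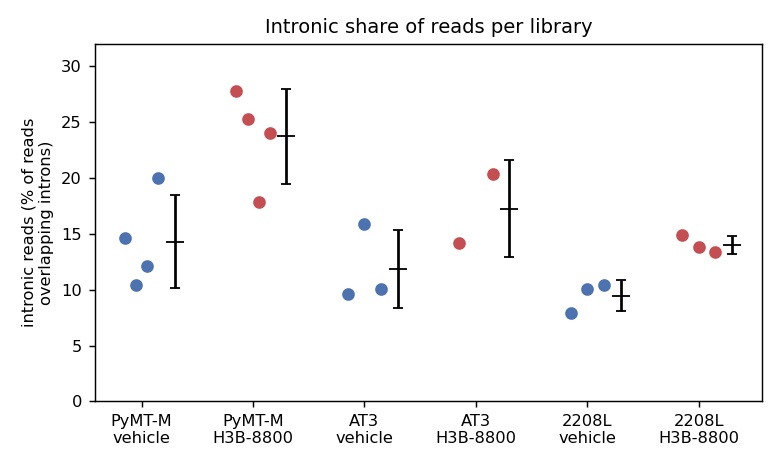
Share of reads overlapping introns that lay inside the intron (percent), 1 point per library, by model and treatment, with the group mean and SD beside the points. The 3 drug-treated 2208L tumors, at 13.3% to 14.9%, lay above all 3 vehicle tumors, at 7.90% to 10.4%, while the groups of PyMT-M and of AT3 overlapped.

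At the level of single introns, most that could be tested gained intronic reads relative to the spliced reads of their gene. The minimum of 5 intronic reads was a mean over vehicle and drug-treated libraries together. Introns with hardly any intronic reads in vehicle could thus enter through their reads with the drug, which can raise the share called higher. Of 52364 introns in 9740 genes, 30712 passed an adjusted p of 0.05 for the mean effect, which is 58.7% of those tested. Of these, 29384 were higher with H3B-8800 (56.1%), in 7730 genes, and 1328 were lower (2.54%), in 1111 genes. All 3 within-model effects had the same sign in 28340 of the higher and 1077 of the lower introns. The libraries of the treatments did not overlap in any of the 3 models at 10266 introns that were higher with the drug (19.6% of all tested) and at 91 that were lower (0.174%). The median log2 change over all introns was 1.27 for the mean effect, and 1.59, 1.11 and 1.08 in PyMT-M, AT3 and 2208L. Across introns the Pearson correlation of the within-model effects was 0.47 for PyMT-M and AT3, 0.57 for PyMT-M and 2208L and 0.37 for AT3 and 2208L. Introns of 1 gene share their spliced reads and are not independent replicates, and the precision of each model differed, with a median standard error of 0.63, 0.83 and 0.82. Without PyMT-M 19850 introns were called. Restricting the test to introns without an annotated exon gave 18886 calls among 30570 introns, and asking for 20 intronic and 50 spliced reads gave 10351 among 15248, so the share called was higher than 58.7% in both. Asking for only 1 intronic and 10 spliced reads gave 37861 among 78963, a share lower than 58.7%. The share called thus depended on the minimum of intronic reads.

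The gain at introns that passed the read minimum was graded by intron length. The median log2 change of the mean effect was 2.09 over the 3203 introns of up to 120 bases, then 1.79, 1.59, 1.36 and 0.93 in the next classes, which end at 300, 1000, 3000 and 10000 bases, and -0.03 over the 4847 introns above 10000 bases. In the shortest class 76.1% of introns were higher and 0.25% lower, and in the longest 16.7% were higher and 6.40% lower. The models parted at the longest introns, where the median was -0.91 in PyMT-M, 0.72 in AT3 and 0.26 in 2208L. The same order held for internal introns without an annotated exon, with medians from 2.59 in the shortest to 0.13 in the longest class. By position in the gene the median was 0.70 for first, 1.42 for internal and 0.94 for last introns, and 0.90 for the single intron of 1-intron genes. Short introns collect fewer reads, and the minimum of 5 intronic reads was not scaled by length. Short introns with few intronic reads in vehicle could thus pass it through their reads with the drug. How far this shaped the gradient was not tested, so these medians are descriptions of the fitted values.

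**Figure D2:**
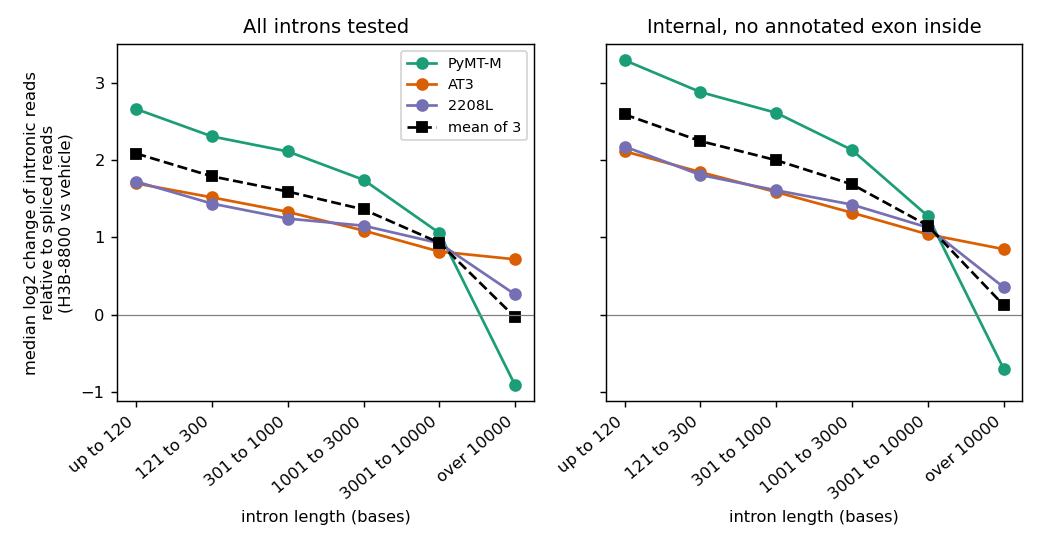
Median log2 change of intronic reads relative to spliced reads of the gene (H3B-8800 against vehicle) by class of intron length in bases, for each model and for the mean of the 3, over all tested introns (left) and over internal introns without an annotated exon (right). The mean effect falls from 2.09 to -0.03 across the classes on the left and from 2.59 to 0.13 on the right.

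The introns with the largest shared gain went from near-complete splicing to a large share of intronic reads. Ctbp2, which encodes a transcriptional corepressor, lost this splicing at its intron 1 (chr7:132998952-132999190). The percent of its reads that were intronic was 0, 0.735, 0 and 0 in vehicle against 78.3, 67.9, 68 and 53.5 in drug-treated PyMT-M tumors, 0 in each tumor against 11.1 and 46.2 in AT3, and 0, 0 and 2.25 against 34.3, 17.3 and 37.8 in 2208L. The AT3 drug tumors differed most among themselves. Summed over tumors, PyMT-M went from 1 intronic and 494 spliced reads to 715 and 324, AT3 from 0 and 125 to 32 and 51, and 2208L from 2 and 257 to 119 and 253. Pi4kb, a phosphatidylinositol 4-kinase gene, had intronic percents at intron 1 (chr3:94993194-94994160) of 5.63, 3.92, 7.14 and 3.7 in vehicle against 79.1, 68.7, 70.9 and 75.2 in drug-treated PyMT-M tumors, 3.51, 0 and 0 against 28.6 and 56.5 in AT3, and 0 in each tumor against 38.6, 22.5 and 22.1 in 2208L. Csnk1e, the casein kinase 1 epsilon gene, had percents at intron 5 (chr15:79424989-79425499) of 0.926, 2.08, 0 and 0 in vehicle against 62.4, 39.7, 49.4 and 44.9 in drug-treated PyMT-M tumors, 1.49, 0 and 0 against 8.33 and 32.6 in AT3, and 0 in each tumor against 9.09, 12.6 and 11.9 in 2208L. The gain in AT3 rested on fewer reads than in PyMT-M at all of these introns. At Sipa1l3 intron 15 (chr7:29348700-29350692) the percents were 9.26, 0, 3.17 and 5.0 in vehicle against 87.8, 63.2, 72.5 and 73.2 in drug-treated PyMT-M tumors, 0, 5.26 and 0 against 53.8 and 56.2 in AT3, and 0 in each tumor against 22.8, 28.6 and 29.2 in 2208L. Lack of overlap between treatments in every model was a condition for naming these introns and is not a separate result. Several vehicle groups held no intronic read, so no fold change is given. The other 8 introns named by the same rule were AI846148 intron 4, Dctn1 intron 3, Iqgap1 intron 27, Esd intron 3, Ryk intron 9, Marc2 intron 3, Ppp1r7 intron 3 and Vdac1 intron 3. The rule also required that they hold no annotated exon.

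Introns with at least 20 intronic and 20 spliced reads in every group allowed a fold change. Intron 1 of Fbxo30, an F-box ubiquitin ligase gene, rose most (4.32 ± 0.35, adjusted p = 2.25e-11, edgeR quasi-likelihood test with Benjamini-Hochberg adjustment). Its intronic percents were 50, 15, 52.7 and 28.3 in vehicle against 95.9, 88.6, 92.6 and 95.2 in drug-treated PyMT-M tumors, 30.9, 36.4 and 35.6 against 78.7 and 94.4 in AT3, and 21.8, 37.9 and 42.1 against 93.4, 85.6 and 89.8 in 2208L. At Smc6 intron 26 they were 17.9, 15.8, 24.2 and 13.7 in vehicle against 89.4, 83.5, 90.7 and 89.4 in drug-treated PyMT-M tumors, 8.9, 18.8 and 9.5 against 50.8 and 73.8 in AT3, and 11.6, 20.9 and 13.8 against 69.9, 58.3 and 72 in 2208L, for a log2 change of 3.53 ± 0.24, adjusted p = 4.74e-13. Smc6 encodes a subunit of the SMC5/6 complex, which acts in DNA repair. Lack of overlap between treatments in every model was again a condition for naming these introns. The 2 AT3 drug tumors lay apart from each other at both. Ddx56 intron 12 (3.73 ± 0.25, adjusted p = 3.18e-13), Ifrd2 intron 1 (3.72 ± 0.31, adjusted p = 2.44e-11) and Scd2 intron 5 (3.52 ± 0.23, adjusted p = 1.57e-13), in a helicase gene, an interferon-related regulator and a stearoyl-CoA desaturase gene, also rose.

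Sequences are shown for 4 short introns that rose in all 3 models and for 3 that were not called, because a reader can compare their ends directly. They were taken from annotated mouse transcripts that keep the intron (GENCODE M21, mm10), so each lies inside an annotated exon, and 4483 of the 52364 tested introns (8.56%) had such a sequence. Capitals mark the first 2 and last 2 bases of the intron and any CTNAC, a short form of the branch point sequence, between 50 and 10 bases before the intron end, searched on the transcript strand only. The introns that rose lie at chr9:108092883-108092980 (minus strand, Apeh), chr16:20681317-20681419 (plus strand, Eif4g1), chr10:79684905-79685004 (plus strand, Cdc34) and chr4:126233998-126234097 (minus strand, Map7d1). Those not called lie at chr17:26938618-26938726 (minus strand, Cuta), chr6:124705089-124705157 (minus strand, Emg1) and chr16:55966439-55966546 (plus strand, Rpl24).
Apeh intron 4: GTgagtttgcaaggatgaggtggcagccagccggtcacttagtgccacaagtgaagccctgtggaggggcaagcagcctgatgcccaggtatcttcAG
Eif4g1 intron 11: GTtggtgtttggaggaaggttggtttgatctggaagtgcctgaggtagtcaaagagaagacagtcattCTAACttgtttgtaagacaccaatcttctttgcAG
Cdc34 intron 2: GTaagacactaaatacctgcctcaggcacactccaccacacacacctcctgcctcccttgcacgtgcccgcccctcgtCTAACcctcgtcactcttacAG
Map7d1 intron 9: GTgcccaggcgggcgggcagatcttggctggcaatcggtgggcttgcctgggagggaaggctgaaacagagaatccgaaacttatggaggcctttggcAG
Cuta intron 2: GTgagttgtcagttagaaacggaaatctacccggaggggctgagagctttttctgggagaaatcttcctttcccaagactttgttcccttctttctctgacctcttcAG
Emg1 intron 4: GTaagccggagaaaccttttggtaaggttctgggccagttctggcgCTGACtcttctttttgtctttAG
Rpl24 intron 1: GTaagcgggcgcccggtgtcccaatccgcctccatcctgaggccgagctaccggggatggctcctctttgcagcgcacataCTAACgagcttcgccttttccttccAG

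Apeh encodes an acylaminoacyl peptidase, and the intronic percents of its intron 4 were 0, 0, 1.23 and 0 in vehicle against 13.4, 31.6, 16.3 and 26.3 in drug-treated PyMT-M tumors, 0 in each tumor against 5.88 and 27.3 in AT3, and 0 in each tumor against 7.55, 20.8 and 18.7 in 2208L. Eif4g1 encodes a scaffold of translation initiation, and its intron 11 had percents of 0, 0, 0.234 and 0 in vehicle against 14.6, 15.8, 16.2 and 10.3 in drug-treated PyMT-M tumors, 0, 0.192 and 0 against 3.64 and 6.97 in AT3, and 0 in each tumor against 4.68, 3.69 and 3.42 in 2208L. Cdc34, a ubiquitin-conjugating enzyme gene, had no intronic read at intron 2 in any vehicle tumor and shares of 14.5%, 6.95%, 9.36% and 8.12% in PyMT-M, 2.45% and 10.6% in AT3 and 0.667%, 0.692% and 1.01% in 2208L with the drug. Map7d1 intron 9 rose by a log2 change of 4.92 ± 0.65, adjusted p = 1.69e-07. The introns that were not called had group means from 29.5% to 35.5%, 36.5% to 35.6% and 37.6% to 36.4% in PyMT-M, AT3 and 2208L for Cuta (log2 change 0.15 ± 0.21, adjusted p = 0.561). Emg1 intron 4 went from 10.1% to 15.2%, 8.96% to 11.1% and 7.36% to 7.49% (0.32 ± 0.28, adjusted p = 0.333), and Rpl24 intron 1 from 2.20% to 2.81%, 0.849% to 1.01% and 1.09% to 1.35% (0.37 ± 0.28, adjusted p = 0.255).

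Pyrimidines made up 65%, 60%, 75% and 50% of the last 20 bases before the terminal AG in the Apeh, Eif4g1, Cdc34 and Map7d1 introns, and 90%, 85% and 80% in those of Cuta, Emg1 and Rpl24. Over all 4483 introns with sequence the difference was small, with a mean of 73.7% ± 10.3 (SD) in the 2790 that were higher, 74.4% ± 10.4 in the 1564 not called and 76.2% ± 10.4 in the 129 that were lower. CTNAC lay in the window in 25.8% of higher, 27.7% of uncalled and 29.5% of lower introns, and in 26.6% of all. TAAC, which overlaps CTAAC, lay there in 11.6%, 16.2% and 17.8%, and in 13.4% of all. Mean GC content was 51.6%, 50.1% and 45.8%. These introns were not drawn at random from those tested, and a match of letters does not show that a site is used.

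A small set of introns lost reads with the drug, 2.54% of those tested. In the gene lists for splicing, 26 of 210 introns of SR and other arginine-serine rich regulators, 8 of 183 of the SF3B complex and U2 particle and none of the core spliceosome were lower. Introns named by the rule numbered 8. Sf3b1 encodes the drug's target subunit, and its intron 4 (chr1:55014563-55016375, minus strand) had intronic percents of 83.5, 62.2, 79.9 and 75.1 in vehicle against 11.7, 20.3, 11.8 and 11.3 in drug-treated PyMT-M tumors, 61.3, 78 and 66.1 against 38.1 and 35 in AT3, and 50.7, 68 and 68.5 against 30.2, 25.4 and 19.9 in 2208L. At Prpf39 intron 8 (chr12:65055321-65055637), in a U1-associated factor, the percents were 61.7, 30.3, 60.2 and 40.9 in vehicle against 9.34, 8.2, 6.4 and 5.7 in drug-treated PyMT-M tumors, 46, 60.1 and 49.5 against 27.4 and 21.7 in AT3, and 41.4, 41.4 and 61.5 against 14.1, 14.7 and 7.26 in 2208L. Srrm1 intron 3 (chr4:135344670-135346734), in an SR-related matrix protein, had percents of 77.4, 53.7, 71.9 and 64.9 in vehicle against 14.2, 10.3, 9.22 and 14.6 in drug-treated PyMT-M tumors, 73.1, 84 and 74.7 against 54.8 and 32.2 in AT3, and 29.4, 49.8 and 43.3 against 14.7, 12.7 and 12.3 in 2208L. The rule for naming required the treatments to be separate within each model. In all 3 introns AT3 drug tumors stayed higher than drug tumors of PyMT-M. Rsrp1 encodes an arginine and serine rich protein, and at its intron 3 the percents were 96.4, 95.1, 97.3 and 96.3 in vehicle against 67.6, 71.5, 65.5 and 67.2 in drug-treated PyMT-M tumors, 95.9, 97 and 96 against 75 and 70.7 in AT3, and 86.4, 92.7 and 92.6 against 69.97, 55.1 and 74.4 in 2208L. The log2 changes were -2.60 ± 0.28, adjusted p = 2.4e-09 for Sf3b1, -2.65 ± 0.31, adjusted p = 1.06e-08 for Prpf39, -2.80 ± 0.29, adjusted p = 1.27e-09 for Srrm1 and -2.30 ± 0.19, adjusted p = 1.73e-11 for Rsrp1. Rbm39 intron 1 (-2.31 ± 0.25, adjusted p = 2.63e-09) and Srsf11 intron 6 (-2.02 ± 0.33, adjusted p = 3.66e-06) fell as well. The other two were Gmfg intron 2 (-3.99 ± 0.60, adjusted p = 9.88e-07), in a glia maturation factor gene expressed in blood cells, and Fh1 intron 4 (-2.20 ± 0.43, adjusted p = 5.13e-05), in the fumarate hydratase gene.

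Annotated exons lie wholly inside 5 of the 8 falling introns. Exons in Sf3b1 (56 bases), Prpf39 (100 bases), Srrm1 (282 bases) and Rbm39 (73, 155 and 274 bases) belong to transcripts annotated for nonsense-mediated decay. The exon of Prpf39 and the 73-base exon of Rbm39 also belong to transcripts annotated as retained introns. An exon in Rsrp1 (45 bases) belongs to a transcript without a coding annotation. Other exons lie inside the introns of Sf3b1 (325 and 382 bases), Srrm1 (754), Rbm39 (392) and Rsrp1 (705). Annotated transcripts also keep the whole intron of Srrm1 (2), Sf3b1 (1) and Rsrp1 (1). Gmfg intron 2, Srsf11 intron 6 and Fh1 intron 4 held no annotated exon wholly inside. Reads of such an exon count as intronic here, so less use of the exon and less of the whole intron cannot be told apart. The 80 bases around the start of the 56-base Sf3b1 exon (chr1:55014905-55014984, minus strand, mm10) are printed because the drug's target is the message concerned. The exon's first 20 bases are in capitals. The exon's first 17 bases are followed by TGA, and whether that lies in the reading frame was not tested.
Sf3b1 exon inside intron 4: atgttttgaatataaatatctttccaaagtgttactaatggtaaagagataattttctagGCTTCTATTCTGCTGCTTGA

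**Figure D3:**
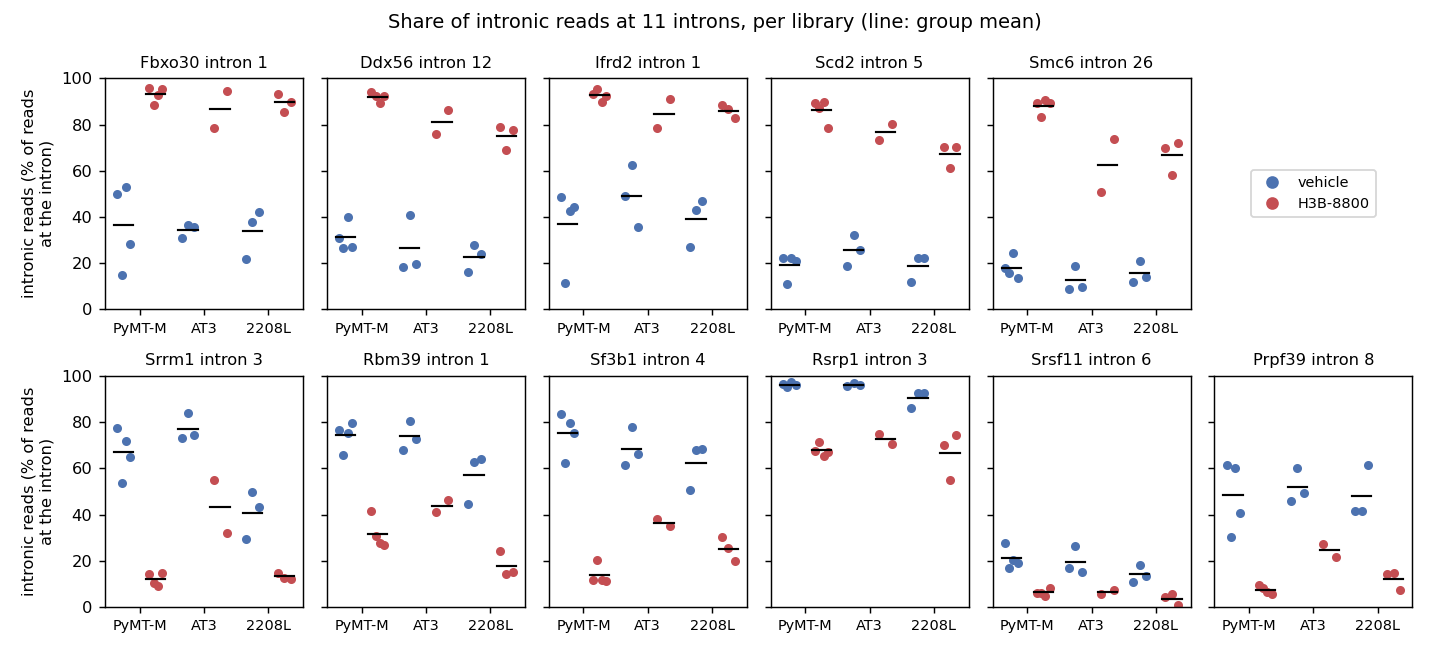
Share of reads at the intron that were intronic (percent), 1 point per library, with a line at each group mean, for 5 introns that rose (top) and 6 that fell (bottom) with H3B-8800. The 11 introns were chosen for having no overlap between drug-treated and vehicle libraries within any model. Fbxo30 intron 1 reached 78.7% to 95.9% with the drug against at most 52.7% without.

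The 3 models differed in their effect at 20 introns, 0.0382% of those tested. At intron 7 of Anxa3, a calcium-dependent phospholipid-binding protein gene, group means went from 71.5% to 19.1% in PyMT-M and 72.2% to 32% in AT3, but from 7.68% to 10.8% in 2208L (adjusted p of the difference = 0.0116). Intron 13 of Mccc2, a leucine breakdown gene, went from 53% to 22.1%, 41.1% to 25.6% and 1.48% to 19.3% in the same order (0.0377). At intron 1 of Tgfbr2, a TGF-beta receptor gene, the means were 3.63% and 76.5%, 53% and 75.8%, and 0.509% and 1.45% (0.0235). Intron 4 of Kdelr1, a retention receptor gene, went from 8.72% to 68.5%, 9.50% to 54.1% and 2.39% to 4.29% (0.0377). At intron 7 of Thbs1, a matrix glycoprotein gene, 2208L went from 33 intronic and 250 spliced reads to 0 and 454, while PyMT-M had means of 17.6% and 25.2% and AT3 of 11.3% and 17.2% (0.0116). Kng2 intron 3 also differed (0.0235). This count rested on single libraries, since leaving out 1 library gave between 0 calls, without 2208L vehicle tumor 3 or drug tumor 3, and 173 calls, without PyMT-M vehicle tumor 1, and none passed without the 4 libraries named above.

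Spliced reads per gene changed in both directions. Of 12711 genes, 3473 passed for the mean effect (27.3%), with 1579 higher (12.4%) and 1894 lower (14.9%) in H3B-8800 tumors. All 3 models had the same sign in 1344 of the higher and 1560 of the lower genes, and the median log2 change was 0.51 in the first and -0.56 in the second. With no scaling beyond the library total, 665 were higher and 2393 lower, a scaling that moves the median of all genes by -0.12 on the log2 scale. Without the 4 libraries named above 815 were higher and 1222 lower, and 1955 of the 3473 calls held. When intronic reads were counted with spliced reads 1742 were higher and 1825 lower, but only 1938 of the 3473 calls held and 81 passed in the opposite direction. Of the 87 called genes named here 16 did not pass in the same direction by that measure, among them Srsf5 (0.27), Mcl1 (0.24), Tab1 (-0.28), Slc38a7 (-0.21), Txnl4b (-0.42) and Hnrnpdl (0.11) on the log2 scale, so their changes are of spliced reads. The counts per gene list below are likewise of spliced reads and were not repeated by that measure. Treatments did not overlap in any model for 203 genes that were higher (1.6% of all) and 410 that were lower (3.23%). In single models PyMT-M gave 1599 higher and 2135 lower genes (12.6% and 16.8%), AT3 31 and 41 (0.244% and 0.323%) and 2208L 786 and 965 (6.18% and 7.59%). The mean effect added 595 genes that passed in no model alone, and 8 higher and 15 lower genes passed in each of the 3. PyMT-M and 2208L shared 895 calls, 24.0% of the former's and 51.1% of the latter's, and 844 of these had the same sign. Across all genes the correlation of the within-model effects was 0.11 for PyMT-M and AT3, 0.13 for PyMT-M and 2208L and 0.05 for AT3 and 2208L.

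Among the 12 named rising genes, several are known from myeloid cells. Lyz2 encodes lysozyme of macrophages and granulocytes, and had CPM values of 182, 100.2, 158 and 51.4 in vehicle against 395, 283, 429 and 469.6 in drug-treated PyMT-M tumors, 1199, 695 and 708 against 1583 and 2039.8 in AT3, and 313, 798 and 103 against 1818, 1551 and 1971 in 2208L (log2 change 1.63 ± 0.30, adjusted p = 0.00105). Ly6c1, a surface protein of monocytes and endothelium, had CPM values of 2.59, 1.29, 2.33 and 3.01 in vehicle against 4.18, 6.56, 7.34 and 11.4 in drug-treated PyMT-M tumors, 18.2, 15.6 and 15 against 46 and 44.2 in AT3, and 6.61, 7.52 and 2.3 against 11.9, 14 and 19.4 in 2208L (1.54 ± 0.22, adjusted p = 0.000108). Lack of overlap between treatments in every model was a condition for naming these genes. Lyz1 (2.44 ± 0.60, adjusted p = 0.00777), the thromboxane synthase gene Tbxas1 (1.66 ± 0.27, adjusted p = 0.000333) and the NADPH oxidase subunit gene Cyba (0.91 ± 0.14, adjusted p = 0.000181) rose too. Enpp2 encodes autotaxin, which makes lysophosphatidic acid, and had CPM values of 3.02, 1.56, 3.56 and 3.01 in vehicle against 5.19, 3.65, 8.67 and 11.5 in drug-treated PyMT-M tumors, 98.1, 89.7 and 90.3 against 139.8 and 315 in AT3, and 3.41, 5.1 and 2.4 against 41.9, 28.8 and 32.9 in 2208L. Its mean effect was 1.97 ± 0.22, adjusted p = 1.33e-05, with 1.37, 1.30 and 3.23 in PyMT-M, AT3 and 2208L. S100a4, a calcium-binding protein of motile cells (1.59 ± 0.22, adjusted p = 8.2e-05), and Col7a1, the collagen of anchoring fibrils (1.6 ± 0.29, adjusted p = 0.000924), were also among them.

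For the other named rising genes no difference among the models passed the test. Nhlrc2, a thioredoxin-like protein gene, had CPM values of 22.5, 21.8, 22 and 19.2 in vehicle against 47.5, 45.9, 49.6 and 40.7 in drug-treated PyMT-M tumors, 23, 22 and 17.3 against 32.6 and 49.6 in AT3, and 32.9, 29.8 and 31.1 against 73.1, 70.01 and 63.5 in 2208L. It was higher in every drug-treated tumor, as the rule for naming required, by 1.08 ± 0.09, adjusted p = 1.34e-06. Mthfd2l, an enzyme of mitochondrial folate metabolism, rose by 0.90 ± 0.12, adjusted p = 5.58e-05, the nuclease gene Tatdn2 by 0.88 ± 0.08, adjusted p = 3.69e-06 and the zinc-knuckle protein gene Zcchc7 by 0.87 ± 0.13, adjusted p = 0.000186. In PyMT-M, AT3 and 2208L the log2 changes were 0.93, 0.88 and 0.88 for Mthfd2l, 0.84, 0.83 and 0.96 for Tatdn2 and 0.78, 0.80 and 1.03 for Zcchc7. The sign of Zcchc7 turned when intronic reads were counted with spliced reads (-0.41).

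The 12 named falling genes have varied roles. Rbm5 encodes a splicing regulator of the early spliceosome, and had CPM values of 253, 259, 229 and 358 in vehicle against 102, 89.4, 68 and 79.4 in drug-treated PyMT-M tumors, 158, 190.4 and 165 against 73 and 73.5 in AT3, and 215, 179.6 and 219 against 59.97, 55.8 and 63.2 in 2208L (-1.57 ± 0.10, adjusted p = 1.48e-07). Syvn1, the ubiquitin ligase of endoplasmic reticulum degradation, had CPM values of 76, 69.5, 114 and 79.4 in vehicle against 32.5, 47.3, 50.5 and 33.8 in drug-treated PyMT-M tumors, 61, 72 and 58.5 against 31.8 and 31.7 in AT3, and 63.5, 58 and 57.6 against 27.2, 29.9 and 32.5 in 2208L (-1.02 ± 0.11, adjusted p = 1.25e-05). In both genes each drug-treated tumor lay below each vehicle tumor of its model, which the rule for naming them required. Proser3 fell most (-2.05 ± 0.16, adjusted p = 1.34e-06). Recql5, a DNA helicase (-1.47), Oip5, a centromere factor (-1.30), Tube1, a centriole tubulin (-1.29), and Pop1, a subunit of RNase P (-1.32), fell on the log2 scale with adjusted p from 1.34e-06 to 0.000218. Dzip3, a ubiquitin ligase (-1.56), Slc38a7, a glutamine transporter (-1.17), Mettl2, a tRNA methyltransferase (-1.14), and Rgs19, a regulator of G protein signaling (-1.14), fell with adjusted p from 6.37e-06 to 7.2e-05. Tab1, an adaptor of the TAK1 kinase, fell by different amounts in the 3 models (-2.28, -0.99 and -0.91, adjusted p of the difference = 0.0328).

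Falling genes held more introns than rising genes, with medians of 11 and 6 against 7 in genes not called. Of genes with 1 to 3 introns 5.98% were lower, rising to 23.1% of those with 12 to 17 introns and 22.4% above that, while the share that was higher went from 14.5% to 7.28%. At least 1 rising intron was found in 93.5% of falling genes with tested introns, in 74.5% of rising genes and in 76.9% of the rest. The intron effect has the gene's spliced reads as its denominator, and the order turned when it was set against the library total: 29.1% of genes in the top and 6.78% in the bottom of 4 equal classes of the median intron effect were lower by the first measure, and 15.6% and 18.3% by the second.

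Genes of the SF3B complex and the U2 particle moved in both directions. Of 23 tested, 6 rose and 4 fell, against 12.4% and 14.9% of all genes, with a median log2 change of 0.07 against 0.02 over all genes. Sf3b1 had CPM values of 532, 522, 465 and 675 in vehicle against 844, 767, 742 and 735 in drug-treated PyMT-M tumors, 474, 517 and 508 against 647 and 761 in AT3, and 473, 457 and 515 against 791, 802 and 690.1 in 2208L (0.55 ± 0.08, adjusted p = 9.64e-05). Sf3b3, which encodes another SF3B subunit, had CPM values of 225, 219, 189 and 222 in vehicle against 275, 281, 274 and 326 in drug-treated PyMT-M tumors, 513, 571 and 557 against 973 and 1044 in AT3, and 383, 361 and 391 against 659, 734 and 608 in 2208L (0.71 ± 0.07, adjusted p = 3.35e-06). The treatments did not overlap in any model for either gene. U2surp, a U2-associated protein gene, had CPM values of 151, 138, 130.2 and 125 in vehicle against 67.7, 60.3, 60.3 and 68.1 in drug-treated PyMT-M tumors, 214, 199 and 209 against 124 and 131 in AT3, and 144, 172 and 178 against 98.3, 115 and 75.2 in 2208L, lower in every drug-treated tumor (-0.85 ± 0.08, adjusted p = 3.69e-06). Without scaling beyond the library total 2 of the list rose and 6 fell, and 3 rose without PyMT-M or without 2208L.

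The largest share of rises among the splicing lists was in SR proteins and other arginine-serine rich regulators. Of 31 genes 17 were higher and 4 lower (median 0.31), against 12.4% and 14.9% of all genes. Srsf5 encodes an SR protein and had CPM values of 360.4, 247, 279 and 356 in vehicle against 588, 492, 421 and 483 in drug-treated PyMT-M tumors, 227, 298 and 256 against 463 and 412 in AT3, and 89.8, 127 and 116 against 327, 287 and 331 in 2208L (0.98 ± 0.10, adjusted p = 5.74e-06), with no overlap in any model. Luc7l3, a U1-associated protein, rose by 0.79 ± 0.07, adjusted p = 1.34e-06, while Rbm10, a paralog of Rbm5, fell (-0.93 ± 0.09, adjusted p = 4.56e-06). Without scaling beyond the library total 8 were higher and 6 lower, without the 4 libraries named above 13 and 4, and 10 were higher without PyMT-M or without 2208L. Of 23 hnRNP genes 3 rose and 3 fell, near the shares over all genes, and 5 rose without PyMT-M vehicle tumor 4 and 5 fell without AT3 drug tumor 2. Among them were Hnrnpdl at 0.72 ± 0.06, adjusted p = 1.75e-06 and Hnrnpu at -0.60 ± 0.08, adjusted p = 7.2e-05. Of 10 CLK and SRPK kinase genes, which phosphorylate SR proteins, 2 rose and 2 fell, the latter being Clk1 (-0.76 ± 0.17, adjusted p = 0.00357) and Clk3 (-0.96 ± 0.11, adjusted p = 1.32e-05). None of these kinase genes rose without AT3 drug tumor 2, the 4 libraries, PyMT-M or 2208L, or with no scaling beyond the library total. Of 38 core spliceosome genes 5 rose and 6 fell, near the shares over all genes. There were 3 rises without 2208L drug tumor 1, 8 without AT3 drug tumor 2, and 1 rise and 10 falls with no scaling beyond the library total. Of 12 genes of the minor spliceosome 1 rose, Zrsr2 (0.69 ± 0.08, adjusted p = 1.32e-05), and 2 fell, among them Txnl4b (-1.6 ± 0.21, adjusted p = 6.27e-05).

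Of 20 genes of RNA export and nuclear RNA decay 8 fell and 1 rose, against 14.9% and 12.4% of all genes. Without the 4 libraries 3 fell and 1 rose. Only 1 fell without PyMT-M. Zfc3h1, a scaffold that sends RNAs to the nuclear exosome, fell (-1.28 ± 0.14, adjusted p = 1.07e-05), by -2.24, -1.11 and -0.49 in PyMT-M, AT3 and 2208L (adjusted p of the difference = 0.0123). Thoc1, of the THO complex, fell by -0.66 ± 0.09, adjusted p = 0.00012, and its effect differed too (-1.40, -0.11 and -0.46, 0.0099). Of 20 genes of nonsense-mediated decay and the exon junction 3 rose and 4 fell, near the shares over all genes. The termination factor gene Etf1 had the smallest p (0.51 ± 0.08, adjusted p = 0.000263). In this list 5 rose without AT3 drug tumor 2, and none fell without PyMT-M. Of 41 genes of Mediator and RNA polymerase II 3 rose and 9 fell, but 5 fell without the 4 libraries and 1 without PyMT-M. Polr2a encodes the largest polymerase subunit, and had CPM values of 167, 159.7, 152 and 165 in vehicle against 34.9, 32.8, 32.6 and 43.9 in drug-treated PyMT-M tumors, 135, 152 and 90.8 against 37.2 and 118 in AT3, and 150.2, 154 and 198 against 82.3, 122 and 75.1 in 2208L (-1.23 ± 0.18, adjusted p = 0.000104). Its treatments overlapped in AT3, where drug tumor 2 stood among the vehicle tumors. Cdk9, the kinase that releases paused polymerase, fell by -0.82 ± 0.09, adjusted p = 1.69e-05.

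**Figure D4:**
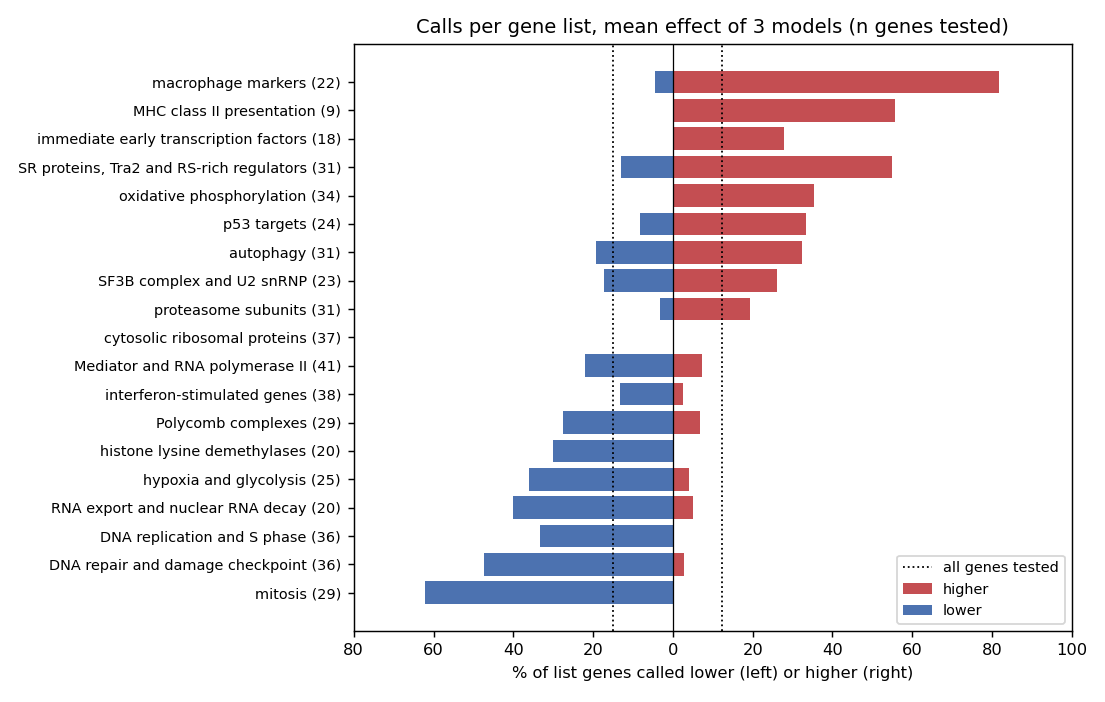
Percent of tested genes of each list called higher (right) or lower (left) for the mean effect of the 3 models, with the number tested in brackets and dotted lines at the percent over all genes (12.4% higher, 14.9% lower). Macrophage markers stand farthest to the right, with 18 of 22 higher, and mitosis genes farthest to the left, with 18 of 29 lower.

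Spliced reads of cell division genes fell. Of 128 tested introns of the mitosis genes 90 were higher, against 56.1% of all introns tested. Of 29 mitosis genes 18 were lower and none higher, 25 fell in all 3 models, and the median log2 change was -0.65 (-1.10, -0.25 and -0.50 in PyMT-M, AT3 and 2208L). Aurkb, a kinase of the chromosomal passenger complex, had CPM values of 18, 20.4, 12.7 and 25.5 in vehicle against 5.4, 3.71, 3.2 and 14.7 in drug-treated PyMT-M tumors, 74.6, 66.4 and 82.1 against 49.9 and 41 in AT3, and 48.7, 36.8 and 46.2 against 10.9, 17.5 and 15.9 in 2208L. The treatments overlapped in PyMT-M, where drug tumor 4 stood above vehicle tumor 3, and were separate in AT3 and 2208L. Aurkb fell by -1.26 ± 0.24, adjusted p = 0.00101, but its value was 0.42 when intronic reads were counted with spliced reads. Ttk, a spindle checkpoint kinase, fell by -1.04 ± 0.22, adjusted p = 0.00214. Mki67, a proliferation marker, fell in the mean (-0.74 ± 0.23, adjusted p = 0.0268) with -1.41, 0.04 and -0.83 in the 3 models, and its adjusted p was 0.165 without the 4 libraries, 0.0529 without AT3 vehicle tumor 2, 0.1 without AT3 drug tumor 2 and 0.0571 without 2208L drug tumor 1. The count of 18 became 6 without the 4 libraries, 6 without PyMT-M, 7 without 2208L and 27 without PyMT-M drug tumor 4. Summed over the list, levels were 938 to 1767 CPM in vehicle and 388 to 1117 CPM in drug-treated PyMT-M tumors, 4111 to 4360.4 and 3170.3 to 3728 CPM in AT3, and 3214 to 3829.5 and 2017 to 3064 CPM in 2208L.

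DNA replication and repair genes moved the same way. Of 36 replication and S phase genes 12 fell and none rose (median -0.30), among them the helicase factors Cdc45 (-1.19 ± 0.16, adjusted p = 5.88e-05) and Mcm10 (-1.19 ± 0.23, adjusted p = 0.00123) and the polymerase alpha subunit Pola2 (-0.80 ± 0.12, adjusted p = 0.000206). The effect on Cdc45 differed among models (-1.97, -0.13 and -1.47, adjusted p of the difference = 0.0255). This count was 6 without the 4 libraries or without AT3 drug tumor 2, 5 without PyMT-M, 4 without 2208L, and 18 with no scaling beyond the library total. Of 36 repair and checkpoint genes 17 fell and 1 rose (median -0.36), and 6 of them did not overlap between treatments in any model. Brca2, of homologous recombination, fell by -1.16 ± 0.21, adjusted p = 0.000614 and Ercc5, a nuclease of excision repair, by -0.59 ± 0.10, adjusted p = 0.000481. There were 11 falls without the 4 libraries and 7 without PyMT-M.

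Macrophage markers rose. Of 22 tested 18 were higher and 1 lower, 15 rose in all 3 models, and the median log2 change was 1.10, with 1.43, 0.17 and 1.71 in PyMT-M, AT3 and 2208L. C1qa encodes a chain of complement C1q, and had CPM values of 34.1, 23.2, 39.5 and 14.9 in vehicle against 77.9, 66.6, 94.7 and 93.6 in drug-treated PyMT-M tumors, 49.7, 46 and 50.1 against 104 and 51.1 in AT3, and 34.3, 87.7 and 22.6 against 215, 174 and 214 in 2208L (1.43 ± 0.23, adjusted p = 0.000263). The treatments were separate in each model, but by little in AT3, where drug tumor 2 stood just above the vehicle tumors. C1qb (1.23 ± 0.18, adjusted p = 0.000137), Tyrobp, a signaling adaptor (0.90 ± 0.13, adjusted p = 0.000149), Adgre1, which encodes F4/80 (1.39 ± 0.33, adjusted p = 0.00615), and Csf1r, the receptor of macrophage growth factor (1.0 ± 0.23, adjusted p = 0.00428), rose as well, the last by only 0.10 in AT3. Summed, the list was at 778 to 1784 CPM in vehicle and 2793 to 3576 CPM in drug-treated PyMT-M tumors, 2474 to 3629 and 4170.3 to 4276 CPM in AT3, and 1101 to 3760.4 and 6916 to 8536 CPM in 2208L. The higher count was 12 without the 4 libraries, 7 without PyMT-M and 9 without 2208L. These markers moved with Lyz2, Lyz1, Tbxas1, Cyba and Ly6c1 above, and their part in those rises was not tested.

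Of 9 genes of antigen presentation by MHC class II 5 rose and none fell, with a median of 0.83, and of 0.97, -0.24 and 1.16 in the 3 models. H2-DMb1, a peptide-loading factor (1.0 ± 0.15, adjusted p = 0.00015), and Ctss, the cathepsin that trims the invariant chain (0.90 ± 0.15, adjusted p = 0.00043), were among them. The summed level in AT3 was 642 to 1395 CPM without and 561 to 1102 CPM with the drug, so the treatments overlapped there. Without AT3 8 rose, and without PyMT-M or without 2208L 2 did. Of 15 genes of class I presentation 2 rose, near the 12.4% higher over all genes. Of 16 endothelial, 11 T cell and 8 cytotoxic cell markers none passed by edgeR's quasi-likelihood test, although 4 endothelial markers rose without 2208L vehicle tumor 2, and of 16 neutrophil markers 1 fell. Of 20 fibroblast and matrix genes 1 rose, and 8 did without 2208L vehicle tumor 2.

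Interferon-stimulated genes differed among the models. Of 38 tested 1 rose and 5 fell, against 12.4% and 14.9% of all genes. Of the same 38, 23 differed among the models, against 3.97% of all genes. Over all genes the number that differed fell from 505 to 58 without the 4 libraries, which include AT3 vehicle tumor 2. The 23 was not counted again without them. The median log2 change was 1.07 in PyMT-M, -1.65 in AT3 and 0.33 in 2208L. Leaving out AT3 gave 20 higher and 1 lower gene, and leaving out PyMT-M gave none higher and 18 lower. The 5 falls became 3 without 2208L vehicle tumor 3, 8 without PyMT-M drug tumor 3 and 2 without the 4 libraries. Ifit2, an antiviral effector, had log2 changes of 2.65, -0.27 and 1.31 in the 3 models (mean 1.23 ± 0.28, adjusted p = 0.00419). Irf9, a subunit of the interferon-activated transcription factor, fell in the mean (-0.83 ± 0.13, adjusted p = 0.000198; -0.49, -1.56 and -0.44). Upstream of these genes, 5 of 22 genes of double-stranded RNA sensing fell (3 without the 4 libraries) and none rose, with Irf3, a transcription factor of that pathway, having CPM values of 68.6, 62, 69.6 and 90.02 in vehicle against 28.4, 25.2, 35.9 and 26.2 in drug-treated PyMT-M tumors, 25.7, 31 and 31.6 against 23.6 and 14.5 in AT3, and 62.8, 50.8 and 57.2 against 22.2, 23.5 and 25.2 in 2208L (-1.07 ± 0.11, adjusted p = 7.32e-06). Irf3 was lower in every drug-treated tumor than in any vehicle tumor of its model, as was the helicase gene Dhx33 (-0.87 ± 0.13, adjusted p = 0.000133). The median log2 change of the 22 sensing genes was 0.34, -0.68 and 0.22 in PyMT-M, AT3 and 2208L. Without AT3 5 of them rose and 3 fell, and without PyMT-M 6 fell and 0 rose. Among the models 5 of the 22 differed, against 3.97% of all genes. Of 23 NF-kB and cytokine genes 4 rose and 1 fell, against 12.4% and 14.9% of all genes. Nfkbia, the inhibitor of NF-kB, rose by unequal amounts (0.86 ± 0.14, adjusted p = 0.000261, with 1.6, 0.12 and 0.86 in the 3 models, adjusted p of the difference = 0.045).

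Lists of cell death and stress are set against 12.4% higher and 14.9% lower over all genes, and the falls among BCL2, death receptor and chaperone genes were near that share. Of 15 genes of the BCL2 family 5 rose and 2 fell, or 2 and 3 with no scaling beyond the library total, and 3 rose without 2208L drug tumor 1 or without the 4 libraries. Mcl1, a survival factor whose splicing is altered by drugs of this class, had spliced-read CPM values of 41.3, 43.6, 38.2 and 33.7 in vehicle against 58.4, 52, 67.7 and 59 in drug-treated PyMT-M tumors, 43.3, 39.9 and 41.9 against 53.3 and 46.1 in AT3, and 68.6, 59.7 and 66.3 against 88.2, 87.8 and 70.8 in 2208L, higher in each drug-treated tumor (0.40 ± 0.08, adjusted p = 0.0014). Bid, which links death receptors to mitochondria, fell in the mean (-0.55 ± 0.11, adjusted p = 0.0014), with -1.29, -0.51 and 0.16 in the 3 models (adjusted p of the difference = 0.0112). Of 20 death receptor genes 4 fell and none rose, with 1 fall without the 4 libraries. Of 24 p53 target genes 8 rose and 2 fell (median 0.28), among them the cell cycle inhibitor Cdkn1a (0.85 ± 0.22, adjusted p = 0.00936) and Zmat3 (0.81 ± 0.15, adjusted p = 0.000851). Cdkn1a did not pass without the 4 libraries (adjusted p = 0.0518), where 4 rose and 1 fell, and none rose without PyMT-M, while 15 rose without AT3. Sesn2, a stress-induced inhibitor of growth signaling, rose by 0.82 ± 0.12, adjusted p = 0.000134, with 1.29, -0.01 and 1.17 in the 3 models. Of 22 integrated stress response genes 4 rose and 5 fell, with 2 falls without AT3 drug tumor 2 and 1 without the 4 libraries, and of 22 chaperone genes 1 rose and 3 fell.

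Several hypoxia and glycolysis genes fell. Of 25 tested 9 fell and 1 rose, against 14.9% and 12.4% of all genes. The medians were -0.26, 0.15 and -0.76 in PyMT-M, AT3 and 2208L. Without PyMT-M or without 2208L 3 fell, and 5 fell without 2208L drug tumor 3. The oxygen sensor gene Egln3 had CPM values of 202, 133, 94.7 and 122 in vehicle against 57.8, 46.1, 47.9 and 67.1 in drug-treated PyMT-M tumors, 102, 80.6 and 127 against 118 and 142 in AT3, and 48.6, 54 and 102 against 15.4, 11.8 and 11.4 in 2208L (-1.14 ± 0.17, adjusted p = 0.000147). Its effect differed among the models (-1.33, 0.33 and -2.41, adjusted p of the difference = 0.00722), as did that of Ankrd37 (-4.43, 0.26 and -3.49, 0.0188). P4ha1, a collagen prolyl hydroxylase, fell by -0.97 ± 0.13, adjusted p = 5.99e-05.

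Of 34 oxidative phosphorylation genes 12 rose and none fell, against 12.4% and 14.9% of all genes, with a median of 0.28. Sdhc, of complex II, rose by 0.43 ± 0.08, adjusted p = 0.000723 and Uqcrfs1, the iron-sulfur subunit of complex III, by 0.51 ± 0.12, adjusted p = 0.00374. Without the 4 libraries or without scaling beyond the library total 5 rose, and without PyMT-M 1 did. The count also turned on the AT3 drug tumors, with 6 without tumor 1 and 26 without tumor 2. Of 31 proteasome genes 6 rose and 1 fell, Psmd11 with the smallest p (0.34 ± 0.06, adjusted p = 0.000756), and the number that rose was 1 without AT3 drug tumor 1, with no scaling beyond the library total or without the 4 libraries, and 19 without AT3 drug tumor 2. None of 37 cytosolic ribosomal protein genes passed by edgeR's quasi-likelihood test. Of 31 autophagy genes 10 rose and 6 fell, but 7 and 8 did with no scaling beyond the library total. Map1lc3b, the LC3 protein of autophagosomes, rose by 0.50 ± 0.08, adjusted p = 0.000315, while Rb1cc1, of the initiating kinase complex, fell by -0.43 ± 0.08, adjusted p = 0.000977 and differed among models (-0.92, -0.16 and -0.22, 0.0397).

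Of 29 Polycomb genes 8 fell and 2 rose, against 14.9% and 12.4% of all genes. Ezh1 (-0.91 ± 0.12, adjusted p = 6.25e-05) and Phf19 (-1.06 ± 0.17, adjusted p = 0.000307) were among the falls. Of 20 histone lysine demethylase genes 6 fell, including Kdm4b (-0.78 ± 0.11, adjusted p = 9.7e-05) and Kdm5c (-0.61 ± 0.09, adjusted p = 0.000201), and none rose. Without PyMT-M 1 Polycomb gene fell, and without AT3 drug tumor 2 10 demethylase genes did. Of 18 immediate early genes 5 rose and none fell, and 1 rose without the 4 libraries. Klf4 rose by 1.2 ± 0.24, adjusted p = 0.00181, and Fosl2 by 0.80 ± 0.20, adjusted p = 0.0064 with an adjusted p of 0.0867 without those libraries. Among epithelial genes, 3 of 13 basal markers rose, against 12.4% of all genes. Krt14, a basal keratin, had CPM values of 5.55, 2.65, 0.727 and 5.84 in vehicle against 31.8, 4.64, 4.92 and 21.1 in drug-treated PyMT-M tumors, 0 in each tumor against 0.807 and 0.0957 in AT3, and 10.1, 9.19 and 6.09 against 258, 113 and 146 in 2208L (adjusted p = 0.0183, and 0.397 without AT3 drug tumor 1). Its rise was in 2208L, while the AT3 tumors hardly expressed it and PyMT-M tumors overlapped. Krt8, a luminal keratin, passed for the mean (0.62 ± 0.16, adjusted p = 0.0083) on AT3 tumors in which it was low, at 24.9, 14.2 and 19.4 CPM and then 72.2 and 35.9 CPM. It was lost without the 4 libraries (adjusted p = 0.0674).

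Effects differed among the 3 models for 505 genes (3.97%), of which 230 also passed for the mean. Most of the 7 named here had their largest change in PyMT-M. Fip1l1, a factor of RNA 3' end processing, had CPM values of 105, 99.9, 88.3 and 106 in vehicle against 33.1, 33.5, 30.1 and 43.7 in drug-treated PyMT-M tumors, 153, 158 and 150.0 against 143 and 129 in AT3, and 119, 118 and 123 against 93, 103 and 95.1 in 2208L, with log2 changes of -1.51, -0.18 and -0.31 in PyMT-M, AT3 and 2208L (adjusted p of the difference = 0.00234). Taf1d, of the RNA polymerase I initiation factor, went the other way (2.06, 0.39 and 0.45), and Arl8a, a lysosomal GTPase (-1.26, -0.07 and -0.07), Zc2hc1a (-1.69, -0.53 and -0.01) and Rasa1, which turns off Ras (-1.49, -0.54 and 0.02, 0.00266), moved most in PyMT-M. For Tuba4a, an alpha tubulin, the signs were mixed (0.92, -0.11 and -0.51) and the mean did not pass (adjusted p = 0.349). Apobec1, a cytidine deaminase, had CPM values of 22.4, 34.3, 21 and 16.2 in vehicle against 6.34, 6.63, 3.83 and 7.88 in drug-treated PyMT-M tumors, 21.1, 21.8 and 16.1 against 13.3 and 8.52 in AT3, and 25.2, 36.8 and 13.1 against 61.7, 67.6 and 61.3 in 2208L. It was lower in PyMT-M and higher in 2208L with the drug (-1.93, -0.85 and 1.34, 0.0039), and its mean did not pass (adjusted p = 0.0746). The number of such genes moved with single libraries, from 245 without 2208L drug tumor 1 to 2639 without AT3 drug tumor 2, and was 58 without the 4 libraries, 31 without PyMT-M and 48 without 2208L. Of the models, AT3 had the fewest libraries and the largest median standard error, 0.30 against 0.23 in PyMT-M and 0.26 in 2208L.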

How the data were processed

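RNA of whole tumors was sequenced from strand-specific, polyA-selected libraries, per the labels' protocols. HISAT2 2.0.4 and the builds mm10 and hg38 are named in the submitters' processing notes, and no read counter is named. The deposited tables give, for every intron, counts by the authors of the reads that lie inside it and of those that overlap it, and an RPKM value that the authors derived from them and that was not tested. Of 163337 introns listed in 17596 genes, 22 lacked values, and 99.9% of the rest matched a GENCODE M21 intron on mm10.

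Spliced reads were taken as overlapping minus intronic reads and summed per gene. Genes reaching a CPM of 1 in 2 or more libraries were tested with edgeR 4.0.16 in R 4.3.3 (robust quasi-likelihood F test, TMM scaling, 6 group means of model and treatment over the 19 libraries). For introns the mean over libraries had to reach 5 intronic and 10 spliced reads, and the model had an offset, the logarithm of spliced reads of the gene plus 0.5. The shared effect was the contrast with equal weights for the 3 models, and a test with 2 degrees of freedom asked whether the 3 effects differed. P-values were adjusted by Benjamini-Hochberg over all genes or all introns, at a threshold of 0.05. Standard errors were derived from the F statistic. The intronic share was tested by exact permutation within models. The edgeR fits of genes and of introns were tested on simulated data. Alternatives used DESeq2 1.42.0, limma 3.58.1, other scalings, filters and offsets, and left out libraries or models.

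Genes were named where they passed, had the same sign in the 3 models, did not overlap in CPM within any model and reached a mean CPM of 5 in the higher treatment of each, by the size of the weakest within-model change (12 in each direction). Up to 3 genes of each list with the smallest p, and those with the smallest p of the difference, were added. Introns followed the same rule, with a mean of 20 plus 20 reads per library in each group, intronic and spliced reads added together. No group had its own minimum of intronic reads under that rule. Introns with 20 reads of both kinds in every group, and those printed as sequence, were added after the data were seen. A few items that these rules select are not reported here. The members and gene lists were chosen with earlier results of these data known. Replicates are separate tumors per the study's design text. Paralogs such as Lyz1 and Lyz2 may share reads, and whether counting used strand is not given in the sources used here.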

Additional observations from a re-analysis of the deposited data

Results flagged for a closer look

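In groups of 4 tumors, which only PyMT-M has, a sample was set aside for notice when its gap to the nearest other sample, divided by the range of the group, passed Dixon's 95% limit for 4 samples. This held for 23 of 256 groups of named genes and introns (8.98%), where chance gives about 1 in 20 groups (5%). Values below are this ratio.

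Among vehicle tumors, tumor 3 was low for Sf3b3 (0.845), tumor 4 was high for Clk3 (0.922), and tumor 4 was low for Etf1 (0.854) and Zc2hc1a (0.852). Vehicle tumor 2 stood apart at 4 introns: its intronic percent was low at Anxa3 intron 7 (0.927), Mccc2 intron 13 (0.895), Ifrd2 intron 1 (0.832) and Scd2 intron 5 (0.887). At AI846148 intron 4, Ryk intron 9, Marc2 intron 3, Ctbp2 intron 1, Apeh intron 4 and Eif4g1 intron 11 a single vehicle tumor held intronic reads and the others held none (1.0 each). Among H3B-8800 tumors, tumor 1 was high for Zcchc7 (0.853), tumor 4 for Dzip3 (0.851) and Sf3b3 (0.883), and tumor 3 for Kdm5c (0.908), while tumor 2 was low for Zc2hc1a (0.851). Gmfg intron 2 had intronic reads in tumor 1 only (1.0). Tumor 2 was high at Sf3b1 intron 4 (0.946), tumor 4 at Fh1 intron 4 (0.83) and tumor 1 at Cuta intron 2 (0.871).

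The effect of the drug differed among the 3 models, by the edgeR quasi-likelihood test with 2 degrees of freedom and Benjamini-Hochberg adjustment, for 18 of the named genes. The adjusted p was 0.00234 for Fip1l1, Tuba4a, Taf1d, Arl8a and Zc2hc1a, 0.00266 for Rasa1, 0.0039 for Apobec1, 0.00722 for Egln3, 0.0099 for Thoc1, 0.0112 for Bid and 0.0123 for Zfc3h1. It was 0.0188 for Ankrd37, 0.02 for Hnrnpdl, 0.0255 for Cdc45, 0.0328 for Tab1, 0.0367 for Sesn2, 0.0397 for Rb1cc1 and 0.045 for Nfkbia. For introns it was 0.0116 at Anxa3 intron 7 and Thbs1 intron 7, 0.0235 at Kng2 intron 3 and Tgfbr2 intron 1, and 0.0377 at Kdelr1 intron 4 and Mccc2 intron 13.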

How the results depend on the processing

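The mean effect on the intronic share was 6.46 percentage points and stayed between 4.98 and 10.9 under every alternative run, and between 5.43 and 7.49 when 1 library was left out. Called genes for the mean effect numbered 3473. They fell to 2037 without the 4 libraries with muscle or lymphocyte transcripts, an alternative chosen after the data were seen, to 1029 without PyMT-M and to 1805 without 2208L, and ranged from 2892 to 3798 when 1 library was left out. Genes with a difference among models numbered 505, and 257 without scaling beyond the library total, 1427 with DESeq2, 185 from the median over introns, 285 with T11 in the fit, 58 without the 4 libraries, 31 without PyMT-M, 48 without 2208L and 245 to 2639 when 1 library was left out. Called introns numbered 30712, of 52364 tested, and 10351 of 15248 with at least 20 intronic and 50 spliced reads. With at least 1 intronic and 10 spliced reads they numbered 37861 of 78963. They were 18886 of 30570 without annotated exons, 19850 without PyMT-M and 24114 to 32478 when 1 library was left out. Introns with a difference numbered 20, and 45 with the library total as offset, 5 with the intron's own spliced reads as offset, 367 with limma, 1085 with DESeq2, 4 without annotated exons, 0 without the 4 libraries, 78 without AT3, 0 without 2208L and 0 to 173 when 1 library was left out. The values that changed sign were Zcchc7 (-0.41) and Aurkb (0.42) with all overlapping reads, and Thbs1 intron 7 without 2208L (1.10). With the replicate number as a block, which pairs tumors by number only, 2849 genes were called for the mean effect and 303 for the difference, and the mean share effect was 6.16 points. Same-numbered tumors deviated together with correlations of 0.045 to 0.485 in PyMT-M, -0.19 and 0.19 in AT3 and -0.30 to -0.005 in 2208L, and only PyMT-M tumors 3 and 4 and AT3 tumor 2 correlated best with their own number. Of the 89 named genes 87 were called, and 2806 of their 2871 values over the alternatives kept their direction and side of the threshold. Of the 38 named introns 34 were called, and 1087 of their 1092 values did so. Most of these genes and introns were named by their p or separation in the same data. Such agreement is thus not a separate result. Of all 3473 called genes 1955 held without the 4 libraries, 1938 with all overlapping reads and 934 without PyMT-M. With 2 drug-treated tumors, AT3 limits the precision of the mean.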

Other observations

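Of 18 mesenchymal transition genes 4 rose and none fell for the mean effect, against 12.4% and 14.9% of all genes. Only 1 rose without the 4 libraries with muscle or lymphocyte transcripts. Of 7 dendritic cell markers 2 rose, with summed levels of 91.3 to 123 CPM in vehicle and 128 to 166 CPM in drug-treated PyMT-M tumors, 196 to 220.0 and 218 to 223 CPM in AT3, and 192 to 246 and 336 to 442 CPM in 2208L. Of 12 adipocyte markers 2 rose, but their sum was high in single tumors, at 747 CPM in PyMT-M drug tumor 4 and 557 CPM in AT3 drug tumor 1. Of 25 sterol and fatty acid synthesis genes 2 fell and none rose. Neutrophil markers summed to 6654 to 9037 CPM in vehicle and 3934 to 4169 CPM in drug-treated 2208L tumors, while the ranges overlapped in PyMT-M and in AT3. Of 8 B cell and plasma cell markers 1 rose, with summed levels of 719 to 1188 CPM in vehicle and 1218 to 2088 CPM in drug-treated PyMT-M tumors, 106 to 138 and 97.1 to 120.2 CPM in AT3, and 248 to 313 and 365 to 438 CPM in 2208L. Sums of dendritic cell and of B cell and plasma cell markers were thus higher in every drug-treated tumor than in any vehicle tumor within PyMT-M and within 2208L, and overlapped in AT3. The sums did not follow the single markers. In PyMT-M, AT3 and 2208L the median log2 change was 0.43, -2.80 and 2.07 for B cell and plasma cell markers. For dendritic cell markers it was -0.0004, -0.31 and 0.42. Numbers of these cells were not tested.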
